A study of Mus musculus with 6 samples.

Results

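The genes described here are 35 genes of the cell cycle, taken by symbol from a deposited table of 24419 genes measured in 6 RNA sequencing libraries. All 35 were found. The libraries came from neuron-enriched cells of mouse cortex bordering an infarct, taken from male mice on day 4 after their middle cerebral artery had been blocked for 60 minutes. The 3 libraries labelled cKO were from mice whose Padi4 alleles are flanked by loxP sites (Padi4flox/flox) and that carry Slc17a7-cre and Slc32a1-cre, drivers at the genes of the vesicular transporters of excitatory and inhibitory neurons. The 3 libraries labelled control came from Padi4flox/flox mice without Cre, after the same occlusion. There were no uninjured animals among these libraries, so levels before the injury were not analysed here. Padi4 encodes a peptidylarginine deiminase, an enzyme that turns arginine into citrulline in histones and other proteins. The deletion was directed to neurons, and cells were sorted for Thy1 and against markers of astrocytes, endothelium, leukocytes and oligodendrocytes. The comparison asks whether transcripts of dividing cells differ between the labels.

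A cell that divides passes from G1 into S phase, copies its DNA, and separates the copies in mitosis. In G1 the MCM helicase is loaded at replication origins, E2F factors and cyclin E then open S phase, and cyclin A, cyclin B and Cdk1 drive the later steps. Many of these genes are silent in resting cells. Mature neurons do not divide, whereas glial precursors, microglia, endothelium and mural cells can divide after an injury.

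Recovered depth ran from 10094145 to 24056755 reads in the libraries labelled cKO and from 10638387 to 18502027 in those labelled control. The targeted gene did not bear out the labels: Padi4 had 0, 3 and 12 reads in cKO replicates 1 to 3 and 0 reads in each control library. The labels do not state which exons are removed, so these reads are a weak check. Directions below are therefore those of the labelled groups. The replicates numbered 2 had the fewest genes with a read, 14042 in cKO replicate 2 and 15261 in control replicate 2, against 16818 to 17891 in the other 4 libraries. Of the sorted surface markers, Thy1 was at 75.1 to 375 in the libraries labelled cKO and 104 to 164 in those labelled control. Ptprc, which encodes CD45, was at 0 to 2.35 and 0.277 to 1.25. Pecam1, an endothelial gene, was at 0.909 to 7.53 and 4.79 to 6.94. Atp1b2, which encodes the astrocyte antigen ACSA2, was at 242 to 412 in the libraries labelled cKO and 133 to 244 in those labelled control. Its mean over the 6 libraries was 252, against 169 for Thy1. Transcripts of other cell types were present beside those of neurons, with summed oligodendrocyte markers above summed pan-neuronal markers in every library. Sums over different markers do not give shares of cells. Summed over 16 markers, oligodendrocyte transcripts ran from 13642 to 43139 in the libraries labelled cKO and from 25454 to 34642 in those labelled control, and 20 pan-neuronal markers ran from 2233 to 9588 and from 3659 to 5361. Values are deposited depth-scaled read counts, on a scale close to CPM, and 1 read was worth 0.0421 to 0.101 of these units.

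None of the 35 cell cycle genes passed the test between the libraries labelled cKO and those labelled control, and each differed by less than the spread between replicates. With limma on log2(value + 1) and Benjamini-Hochberg adjustment over 14796 tested genes, 0 of the 35 genes were higher and 0 were lower at an adjusted p under 0.05, where 0.0% of all tested genes were called in either direction. At an unadjusted p under 0.05 the count was also 0 of 35, against 0.852% of all tested genes. The smallest unadjusted p among the 35 was 0.161, for Mcm5. edgeR and DESeq2 on recovered reads also called 0 of the 35, with 0 at an unadjusted p under 0.05 in each. All 35 passed the filter on low values. For every one of the 35 the difference between group means was smaller than the larger of the 2 SDs, and for 31 the log2 fold change was smaller than its standard error (SE). The groups overlapped in all 35, where 4.7% of all tested genes had groups that did not overlap, 2.45% with cKO higher and 2.26% with cKO lower.

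Of the 35 genes, 16 had a higher and 19 a lower fitted value in the libraries labelled cKO, or 54.3% lower, against 52.0% of all tested genes. With edgeR and with DESeq2 on recovered reads, 10 were higher and 25 lower, or 71.4% lower, against 48.6% of all tested genes in edgeR and 50.2% in DESeq2. The median log2 fold change of the 35 was -0.24 in edgeR and -0.27 in DESeq2. In limma their median log2 fold change (cKO minus control) was -0.14, against -0.02 over all tested genes. The typical SE was large, with a median of 1.00 against 0.54 over all tested genes, so a difference of 2-fold, a log2 of 1, would lie within it for many of these genes. In bulk libraries, fewer cells of a dividing type and less of these RNAs in each cell cannot be told apart. Nothing in the labels states that each library is a separate animal. The p-values therefore reflect only how these samples vary, and that variation may be technical.

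The spread had a regular form: the libraries numbered 2 stood below the other 4 in both groups. Summed over the 35 genes, the deposited values were 1023, 307 and 664 in cKO replicates 1, 2 and 3, and 1120.0, 223 and 869 in control replicates 1, 2 and 3. These are 0.102%, 0.0301% and 0.0656% of reads in the libraries labelled cKO and 0.114%, 0.0232% and 0.0845% in those labelled control. Each group thus held 2 libraries with high totals and 1, numbered 2, with a low total. In 26 of the 35 genes both libraries numbered 2 lay below all of the other 4, against 18.8% of all tested genes. In 0 of the 35 did both libraries numbered 1, or both numbered 3, lie below the rest, against 13.9% and 5.18% of all tested genes. Both libraries numbered 1 lay above the other 4 in 15 of the 35 genes, against 14.5% of all tested genes. For numbers 2 and 3 that count was 0, against 11.7% and 6.63% of all tested genes.

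**Figure D1:**
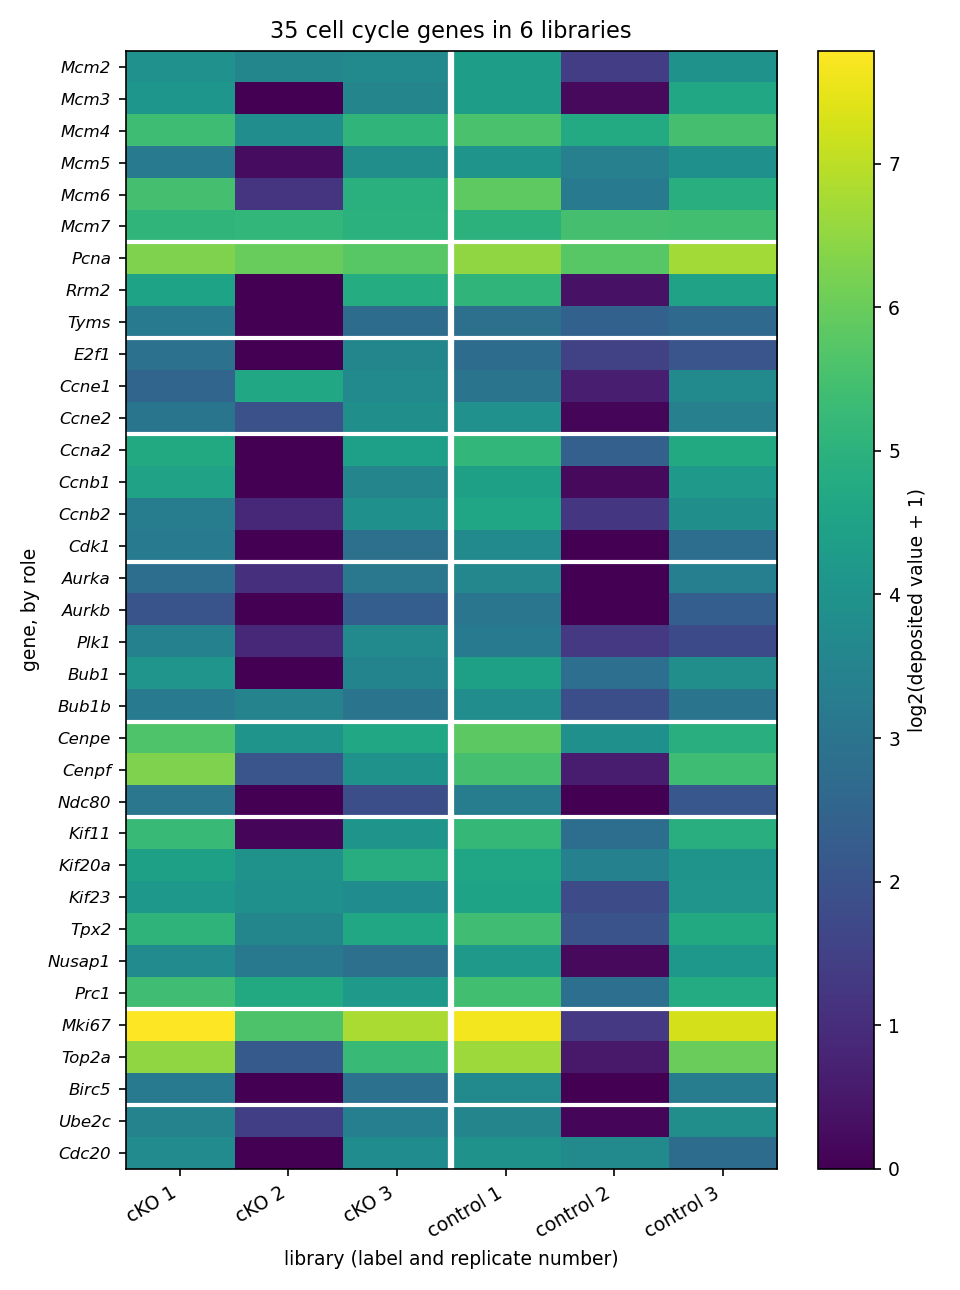
Heat map of the 35 cell cycle genes (rows, grouped by role with white lines) in 6 libraries (columns, cKO left of control). Colour gives log2(deposited value + 1), and the columns cKO 2 and control 2 are the darkest, with 14 and 10 genes at 3 reads or fewer.

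At 3 reads or fewer, the floor used here for detection, which covers counting error only, were 14 of the 35 genes in cKO replicate 2 and 10 in control replicate 2, against 12.5% and 6.66% of all tested genes. The share of all tested genes that low was 0.757% and 0.331% in cKO replicates 1 and 3, and 0.554% and 1.37% in control replicates 1 and 3. In the other 4 libraries 0 of the 35 were that low, and the fewest reads of any of these genes was 42. Among the libraries labelled cKO, replicate 2 was also the shallowest, with 10094145 reads, while control replicate 2 had 13077507 reads and control replicate 1 had 10638387. The parts of depth and of expression level in the counts at the floor were not tested. The median value over all tested genes was 21.0 in cKO replicate 2 and 21.9 in control replicate 2, and 21.3 to 23.0 in the other 4. Over the 35 genes it was 1.31 in cKO replicate 2 and 1.69 in control replicate 2, and 12.8 to 20.5 in the other 4. The 35 genes were thus lower than the typical tested gene in those 4 libraries too. Which genes were missing was shared in part between the libraries numbered 2. Of the 14 genes at 3 reads or fewer in cKO replicate 2 and the 10 in control replicate 2, 6 were in both. They were Mcm3, Ccnb1, Cdk1, Aurkb, Ndc80 and Birc5. Of the 35 genes, 16 were higher in cKO replicate 2 and 15 in control replicate 2, and 4 were at 0 in both.

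The promoters of 5 genes are printed here because genes of S phase and of mitosis are textbook targets of shared promoter elements. Of the 5, Mki67, Top2a, Ccnb2 and Mcm6 were lowest in both libraries numbered 2, and Mcm5 was not. E2F sites serve genes of S phase. The cell cycle homology region (CHR), bound by the MuvB complex, and CCAAT boxes, bound by NF-Y, serve genes of G2 and mitosis. The sequences are RefSeq promoter windows of build GRCm38.p6, on the strand of the gene, from 250 bases before the start to 30 bases after it. Capitals mark matches on either strand to an E2F site (TTTGGCGC, TTTCCCGC, TTTCGCGC or TTTGCCGC), to a CHR (TTTGAA or TTCGAA) or to CCAAT.
Mki67, chr7:135716350-135716629, minus strand: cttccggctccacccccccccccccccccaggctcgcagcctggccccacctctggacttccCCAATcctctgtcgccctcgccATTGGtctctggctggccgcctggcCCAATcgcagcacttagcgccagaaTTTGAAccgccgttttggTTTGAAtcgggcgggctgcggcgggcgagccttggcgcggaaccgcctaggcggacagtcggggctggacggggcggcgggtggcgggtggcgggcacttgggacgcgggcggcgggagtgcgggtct
Top2a, chr11:99024160-99024439, minus strand: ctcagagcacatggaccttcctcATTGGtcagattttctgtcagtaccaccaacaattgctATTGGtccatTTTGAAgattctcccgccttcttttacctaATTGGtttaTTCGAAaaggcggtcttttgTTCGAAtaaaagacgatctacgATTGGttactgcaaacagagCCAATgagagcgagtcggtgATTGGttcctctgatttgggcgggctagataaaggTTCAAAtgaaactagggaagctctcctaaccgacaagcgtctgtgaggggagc
Ccnb2, chr9:70421525-70421804, minus strand: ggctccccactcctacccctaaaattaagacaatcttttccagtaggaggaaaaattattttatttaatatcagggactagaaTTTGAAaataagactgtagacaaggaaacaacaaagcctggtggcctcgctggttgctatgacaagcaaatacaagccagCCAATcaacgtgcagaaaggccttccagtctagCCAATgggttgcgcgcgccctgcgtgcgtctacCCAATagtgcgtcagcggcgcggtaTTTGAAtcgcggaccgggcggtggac
Mcm5, chr8:75109259-75109538, plus strand: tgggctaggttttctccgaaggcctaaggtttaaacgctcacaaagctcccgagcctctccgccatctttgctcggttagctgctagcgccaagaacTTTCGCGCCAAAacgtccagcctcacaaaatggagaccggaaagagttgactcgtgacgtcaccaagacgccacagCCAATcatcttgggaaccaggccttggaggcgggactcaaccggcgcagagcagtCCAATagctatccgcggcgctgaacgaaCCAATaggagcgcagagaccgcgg
Mcm6, chr1:128359676-128359955, minus strand: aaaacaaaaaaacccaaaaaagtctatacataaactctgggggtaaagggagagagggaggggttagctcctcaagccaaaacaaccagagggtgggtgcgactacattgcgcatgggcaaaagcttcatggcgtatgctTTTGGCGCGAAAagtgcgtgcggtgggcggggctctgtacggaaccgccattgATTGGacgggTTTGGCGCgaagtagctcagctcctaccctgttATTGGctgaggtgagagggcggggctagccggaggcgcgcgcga

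The 3 mitotic promoters hold CHR and CCAAT matches and no E2F match, and the 2 helicase promoters hold E2F and CCAAT matches and no CHR. Mki67 has 2 CHR and 3 CCAAT matches, Top2a has 4 and 6, and Ccnb2 has 2 and 3. In Mcm5 the 2 E2F matches overlap on opposite strands, from 153 to 142 bases before the start. Mcm6 has 3 E2F matches, of which 2 overlap in the same way.

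RefSeq windows of 300 bases, reaching 50 bases past the start, were matched to 29 of the 35 genes, in 31 windows, and not to Mcm4, Ccne2, Ccna2, Aurkb, Kif20a and Tpx2. Among the 20 windows of G2 and mitosis genes, 80.0% held a CHR match and 85.0% a CCAAT match, and an E2F match was in 1 window. Among the 11 windows of G1/S and replication genes, 18.2% held a CHR match, 72.7% a CCAAT match and 36.4% an E2F match. Over all 32851 windows of the same length the shares were 19.2% for CHR, 37.4% for CCAAT and 2.26% for E2F. The split seen in the printed promoters did not hold throughout. Mcm2 held a CHR and no E2F match, Cdk1 and a window of Mcm7 held both, and Birc5 and Nusap1 held neither. Matches of different motifs overlapped once in the windows of the 29 genes. A match is a run of letters and was not tested as a binding site.

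**Figure D2:**
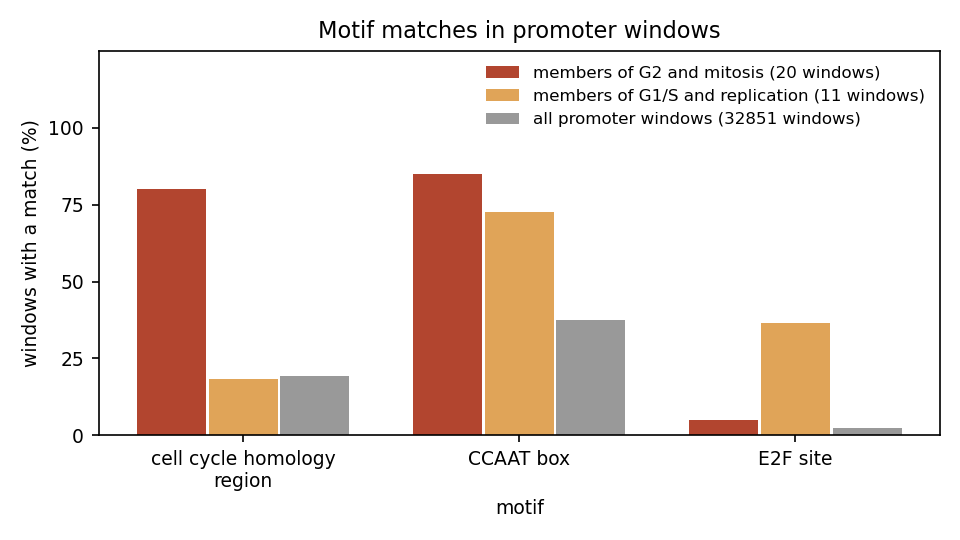
Share of 300-base promoter windows (y axis, percent) with a match to each motif (x axis), for windows of G2 and mitosis genes, of G1/S and replication genes, and of all genes. The CHR bar stands at 80.0% in G2 and mitosis genes and 19.2% in all windows.

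Among the genes with over 3 reads in all 6 libraries, the chromosome genes Top2a and Mki67 had the widest ranges between libraries, 223-fold and 149-fold. Cenpf was also at 149-fold. Mki67, which encodes the Ki-67 coat of mitotic chromosomes and is the usual histological mark of dividing cells, was at 219.7, 48.4 and 110.2 in cKO replicates 1 to 3, against 201, 1.47 and 156 in control replicates 1 to 3. Both groups spanned low and high libraries, and the lowest library of each was numbered 2. Group means were 126 ± 86.8 in the libraries labelled cKO and 119 ± 104 in those labelled control (SD, n = 3 each), with a log2 fold change of 1.32 (SE 1.37). That positive value rests on control replicate 2, with 20 reads of Mki67, and it was -0.74 without that library. The mm10 position of Mki67 is chr7:135689784-135716361, minus strand.

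Top2a, encoding the topoisomerase that untangles copied chromosomes, was at 89.5, 3.64 and 36.6 in cKO replicates 1 to 3, against 98.5, 0.441 and 63.4 in control replicates 1 to 3. In reads this was 1865, 36 and 870, against 1069, 6 and 1141. Its group means were 43.2 ± 43.3 and 54.1 ± 49.7 in the libraries labelled cKO and control (SD, n = 3 each), and the log2 fold change of 0.26 (SE 1.5) had the largest SE of the 35. The highest library was 223-fold above the lowest, more than in any of the other genes with over 3 reads in all 6 libraries. Birc5, encoding survivin of the chromosomal passenger complex, had 0 reads in both libraries numbered 2 and 6.65 to 11.98 units in the other 4.

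**Figure D3:**
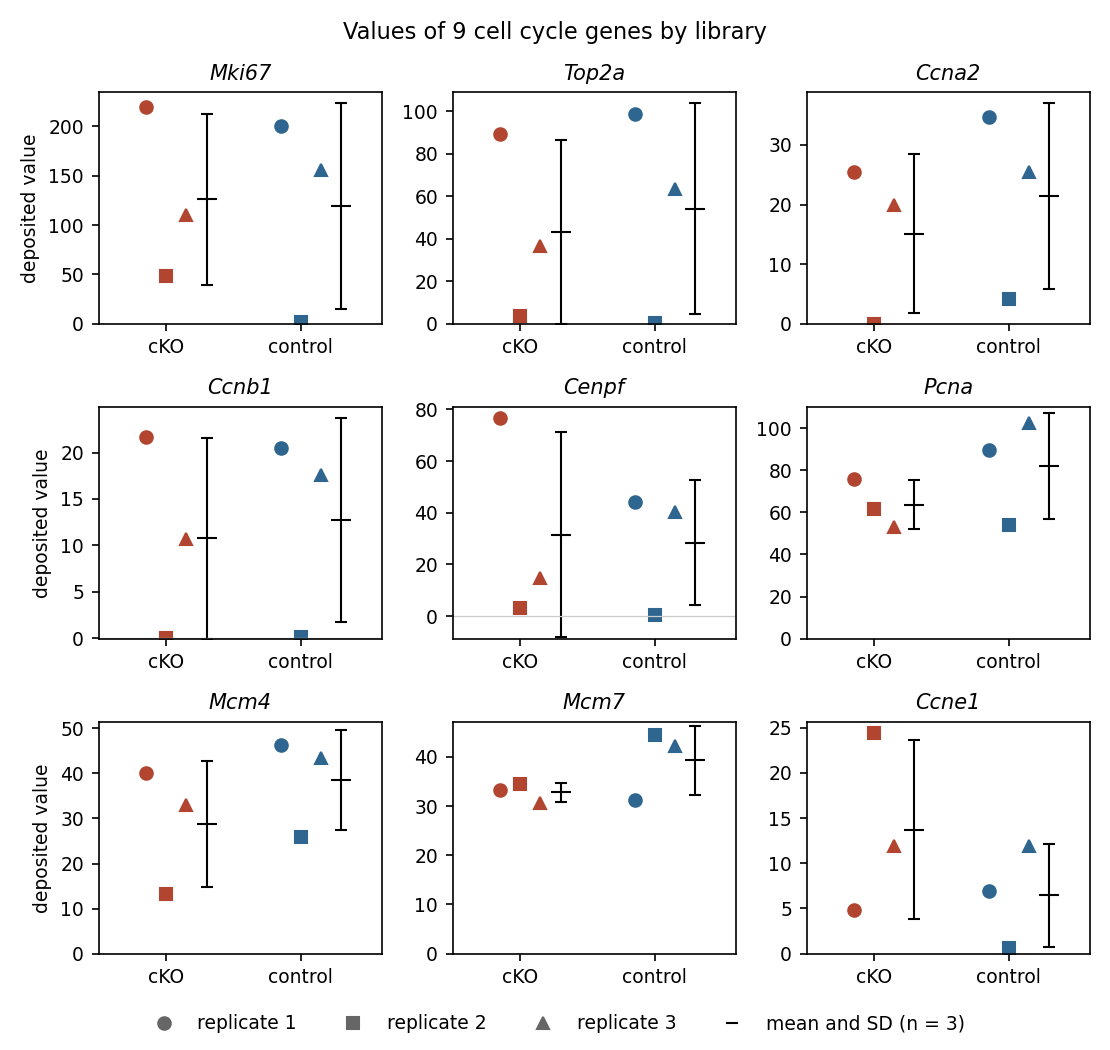
Deposited values (y axis) of 9 cell cycle genes in the libraries labelled cKO (left) and control (right), with a symbol for each replicate number and black bars for mean and SD (n = 3). Replicate 2 (squares) lies near 0 in both groups for Top2a, Ccnb1 and Cenpf, while Mcm7 runs from 30.6 to 44.4.

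Cdk1 and the 3 genes of cyclins A2, B1 and B2 were all lowest in the libraries numbered 2. Ccna2, encoding cyclin A2, was at 25.5, 0 and 19.9 in cKO replicates 1 to 3, against 34.7, 4.19 and 25.4 in control replicates 1 to 3. Ccnb1, encoding cyclin B1, was at 21.6, 0 and 10.7, against 20.5, 0.147 and 17.6. For both genes the groups shared the same order, with replicate 1 or 3 high and replicate 2 low. The log2 fold change was -1.05 (SE 1.20) for Ccna2 and -0.26 (SE 1.33) for Ccnb1. Ccnb2, encoding cyclin B2, was at 8.88, 0.808 and 14.1, against 22.7, 1.32 and 13.6. Cdk1, the kinase that cyclin B activates, had 0 reads in both libraries numbered 2 and 109 to 170 reads in the other 4. The summed values of Ccna2, Ccnb1, Ccnb2 and Cdk1 were 64.2, 0.808 and 51.0 in cKO replicates 1 to 3, against 90.1, 5.66 and 62.6 in control replicates 1 to 3. Exons of Ccna2 lie over those of Exosc9 on the opposite strand, and whether the counting used strand is not stated in the labels. In all, 9 of the 35 genes have exons over a gene on the opposite strand. They are Ccna2, Ccne2, Cdc20, Kif20a, Mcm7, Nusap1, Plk1, Prc1 and Ube2c, and the part of the opposite genes in their counts was not tested.

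In 4 of the 5 mitotic kinase genes both libraries numbered 2 lay below the other 4. Bub1, a kinase of the spindle checkpoint, was at 15.7, 0 and 10.3 in cKO replicates 1 to 3, against 20.6, 6.18 and 13.3 in control replicates 1 to 3. Its values overlapped between the groups, and the log2 fold change was -1.18 (SE 1.00). Bub1b, encoding the checkpoint protein BubR1, was at 8.35, 10.1 and 6.95, against 12.997, 2.65 and 7.06. Its highest value among the libraries labelled cKO was in replicate 2, unlike that of the other 4 kinase genes. Aurka and Aurkb, the Aurora kinases, and Plk1, Polo-like kinase 1, had 0 to 20 reads in the libraries numbered 2 and 42 to 282 in the other 4.

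Kinetochore genes differed more within groups than between them. Cenpe, a kinetochore motor of the kinesin family, was at 49.1, 15.4 and 24.1 in cKO replicates 1 to 3, against 55.5, 14.1 and 28.6 in control replicates 1 to 3, and its log2 fold change was -0.10 (SE 0.58). Each group had replicate 1 highest and replicate 2 lowest. Cenpf, a large centromere and microtubule protein, was at 76.7, 3.13 and 14.9, against 44.3, 0.515 and 40.2. Ndc80, which couples kinetochores to microtubules, had 0 reads in both libraries numbered 2 and the lowest mean level of the 35 per kilobase of exon, 0.572.

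Among spindle genes, 3 of 6 had both libraries numbered 2 below the rest. Kif11, the Eg5 motor that separates spindle poles, was at 37.4, 0.101 and 15.2 in cKO replicates 1 to 3, against 35.6, 6.03 and 28.8 in control replicates 1 to 3. Tpx2, an activator of Aurora A, was at 32.4, 11.01 and 24.1, against 41.2, 3.02 and 25.5. Prc1, which bundles the microtubules of the anaphase midzone, was at 41.2, 25.2 and 17.0, against 41.7, 6.25 and 26.9. In Prc1 the lowest library labelled cKO was replicate 3 and the lowest control library was replicate 2. Log2 fold changes were -1.16 (SE 1.17) for Kif11, 0.39 (SE 0.82) for Tpx2 and 0.40 (SE 0.66) for Prc1. Kif20a, the kinesin of cytokinesis also called MKlp2, had the narrowest range of the mitotic genes with over 3 reads throughout, 2.87-fold, from 14.8 to 27.6 in the libraries labelled cKO and from 9.64 to 23.0 in those labelled control. Kif23 and Nusap1, which also act in cytokinesis and spindle assembly, had 34 and 2 reads in control replicate 2 and at least 78 in each of the other 5 libraries.

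The partners of the anaphase-promoting complex did not move together. Cdc20, its mitotic activator, was at 12.6, 0 and 12.8 in cKO replicates 1 to 3, against 14.7, 12.1 and 5.78 in control replicates 1 to 3. Its only library without a read was cKO replicate 2, while control replicate 2 held 165 reads. Ube2c, its ubiquitin-conjugating enzyme, was at 10.2, 1.72 and 9.30, against 10.6, 0.0736 and 13.3. Both libraries numbered 2 were lowest for Ube2c, with 17 reads in cKO replicate 2 and 1 read in control replicate 2. The log2 fold change was -0.97 (SE 0.98) for Cdc20 and 0.27 (SE 1.03) for Ube2c.

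Replication genes varied among themselves in the libraries numbered 2. Summed over the 6 helicase subunits Mcm2 to Mcm7, values were 157, 60.0 and 129 in cKO replicates 1 to 3, against 188, 90.0 and 168 in control replicates 1 to 3. Replicate 2 thus held 42.0% of the mean of replicates 1 and 3 in the libraries labelled cKO and 50.6% in those labelled control. Much of that was Mcm7, and without it the shares were 23.0% and 32.3%. Mcm2 was at 14.4, 10.9 and 11.9 in cKO replicates 1 to 3, against 19.4, 1.69 and 15.1 in control replicates 1 to 3, with control replicate 2 far below the other 5. Mcm3 had 336, 0 and 256 reads, against 208, 2 and 443. Mcm6, whose promoter with its E2F matches is printed above, was at 44.3, 1.31 and 29.5, against 56.4, 8.46 and 28.7. For the chromosome genes Mki67, Top2a and Birc5 the same shares were 22.1% and 0.710%, and for the cyclins with Cdk1 1.40% and 7.42%.

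Mcm4 was at 40.2, 13.1 and 33.0 in cKO replicates 1 to 3, against 46.2, 25.8 and 43.5 in control replicates 1 to 3, with a log2 fold change of -0.50 (SE 0.49). Mcm5 was at 8.25, 0.202 and 13.4, against 15.2, 9.49 and 14.0, with a log2 fold change of -1.33 (SE 0.88), the lowest of the 35. That value came mainly from 2 reads in cKO replicate 2, and it was -0.24 without that library. Mcm7 was at 33.2, 34.4 and 30.6, against 31.2, 44.4 and 42.2, with a log2 fold change of -0.24 (SE 0.35). Its 6 libraries lay within 1.45-fold, the narrowest range of the 35. Exons of Mcm7 lie over exons of Cops6 and Ap4m1 on the opposite strand, where Cops6 was at 28.4 to 39.1 in the libraries labelled cKO and 29.0 to 33.1 in those labelled control, and the part of these genes in the Mcm7 count was not tested.

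Pcna, the sliding clamp of DNA polymerase, was the highest of the 35 per kilobase of exon, with a mean of 30.3 per kilobase over the 6 libraries, against 12.2 for Mki67 and a median of 2.79. It was at 75.9, 61.7 and 53.2 in cKO replicates 1 to 3, against 89.5, 53.8 and 103 in control replicates 1 to 3. The libraries numbered 2 were not both below the other 4 here, and the log2 fold change was -0.32 (SE 0.35). Rrm2, the S phase subunit of ribonucleotide reductase, was at 21.9, 0 and 27.5, against 33.4, 0.294 and 21.5. Its libraries numbered 2 had 0 and 4 reads. Tyms, thymidylate synthase, had 0 reads in cKO replicate 2 and 4.34 to 8.30 units in the other 5 libraries.

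Of the cyclin E genes, which open S phase, Ccne1 did not have both libraries numbered 2 lowest. It was at 4.85, 24.4 and 11.9 in cKO replicates 1 to 3, against 6.91, 0.588 and 11.9 in control replicates 1 to 3. The libraries numbered 2 were thus the highest of the libraries labelled cKO and the lowest of those labelled control, and the log2 fold change of 1.19 (SE 0.87) turned to -0.22 without both. Ccne2 was at 7.20, 2.83 and 13.7, against 14.5, 0.0736 and 9.50, with a log2 fold change of 0.47 (SE 1.00). E2f1, the S phase transcription factor, was at 6.57, 0 and 10.99, against 5.72, 1.91 and 3.17.

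**Figure D4:**
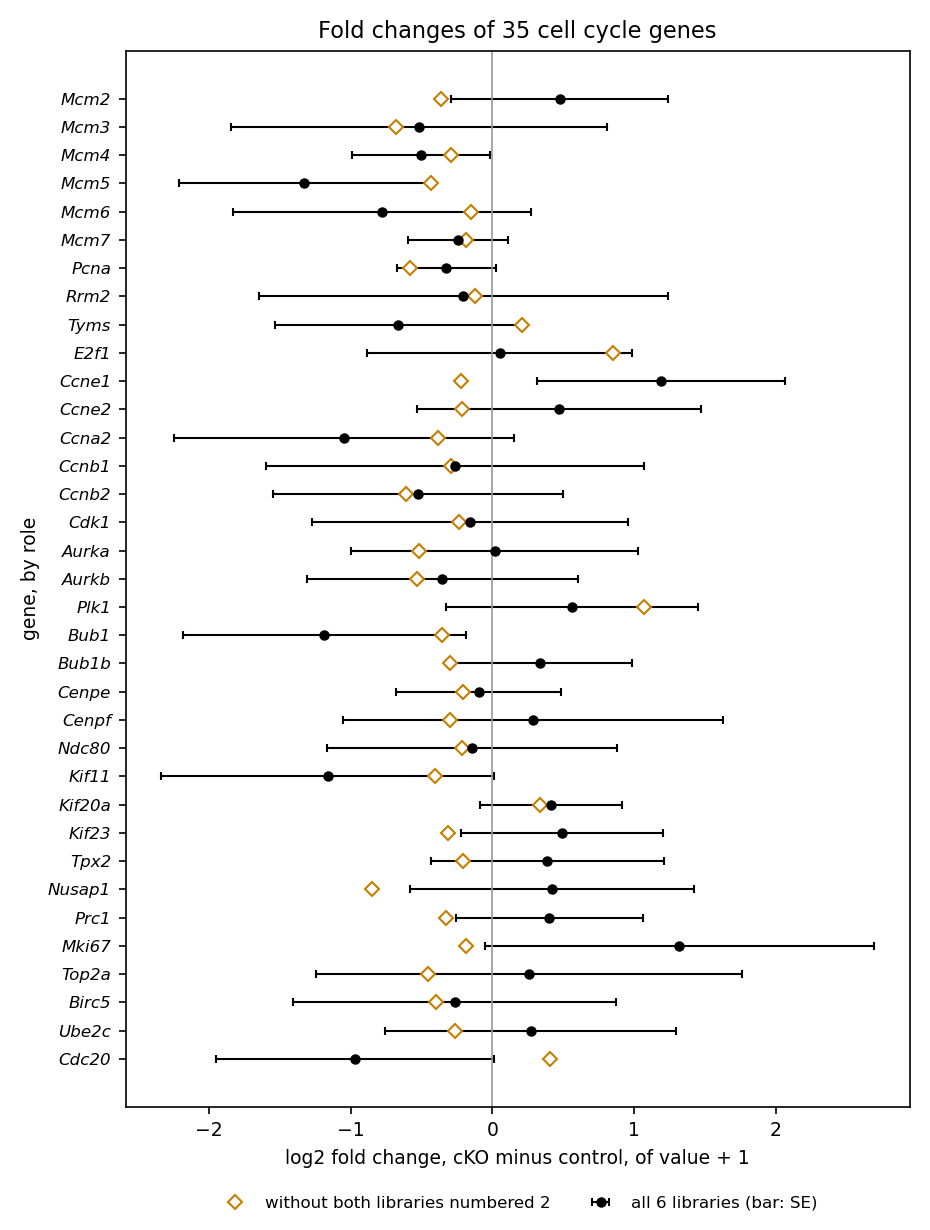
Log2 fold change (x axis, cKO minus control, of value + 1) of each of the 35 genes with its SE from all 6 libraries (black) and from the 4 libraries numbered 1 and 3 (open diamonds). In the 4 libraries 30 of the 35 diamonds lie below 0, between -0.85 and 1.07 in all.

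The direction of these genes as a group hung on single libraries. Their median log2 fold change was 0.56 without cKO replicate 2, 0.60 without control replicate 1 and 0.29 without control replicate 3. It was -0.90 without control replicate 2, -0.64 without cKO replicate 1 and -0.26 without cKO replicate 3. Lower under the label cKO were 24 of the 35 without cKO replicate 1, 4 without cKO replicate 2 and 23 without cKO replicate 3, where 51.8%, 46.0% and 55.1% of all tested genes were lower. Without control replicates 1, 2 and 3 in turn, 10, 32 and 13 were lower, where 51.5%, 53.8% and 50.0% of all tested genes were. The median of all tested genes stayed between -0.06 and 0.04 in these 6 fits. Without both libraries numbered 2 the median was -0.29, and 30 of the 35 genes had a lower fitted value in the libraries labelled cKO, against 47.9% of all tested genes. Many of these genes rose and fell together between libraries, so 30 of 35 is not a count of separate results. The libraries left out were those low for most of these same genes. With 2 libraries a group, 10 of the 35 had both libraries labelled cKO below both labelled control (Mcm2, Mcm3, Mcm4, Mcm5, Pcna, Aurka, Aurkb, Nusap1, Birc5 and Ube2c), against 9.56% of all tested genes, and E2f1 and Plk1 had them above. In both directions that makes 12 of 35, against 20.0% of all tested genes. Leaving out 1 library instead, the groups did not overlap in 10 of the 35 without control replicate 2 (11.7% of all tested genes), 2 without cKO replicate 2 (9.71%), 1 without cKO replicate 3 (14.4%) and 1 without control replicate 1 (13.3%). The count was 0 without cKO replicate 1 (22.2%) and without control replicate 3 (9.22%). In limma 0 of the 35 passed the adjusted threshold in any of these fits, and 0 had an unadjusted p under 0.05.

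**Figure D5:**
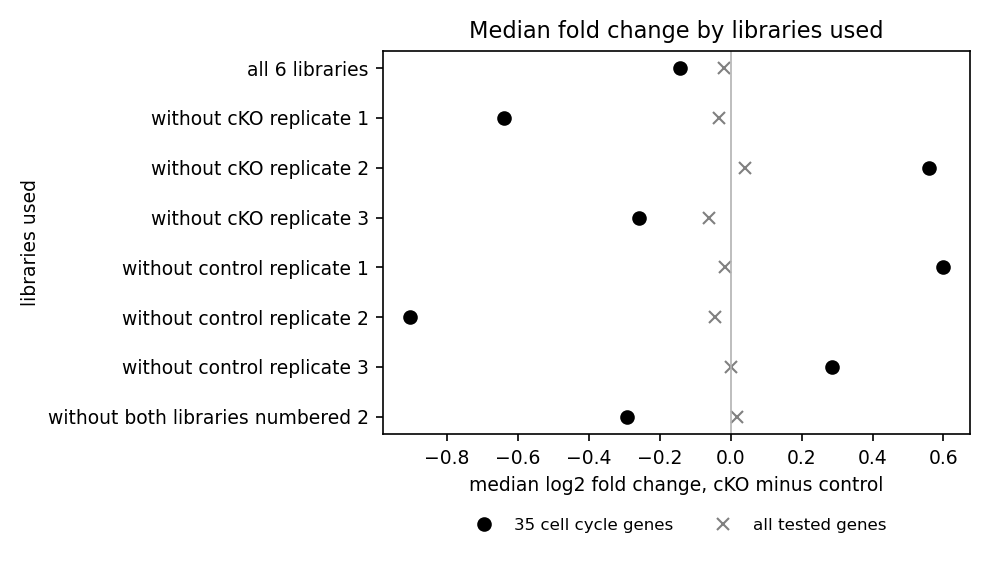
Median log2 fold change (x axis, cKO minus control) of the 35 cell cycle genes (dots) and of all tested genes (crosses) for each set of libraries used (y axis). The dots run from -0.90 without control replicate 2 to 0.60 without control replicate 1.

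Other genes of the cell cycle were read from a list of 119 symbols, of which 117 were in the table and 115 were tested. In limma 0 were called higher and 0 lower. At an unadjusted p under 0.05 in limma, 1 of the 115 was higher, Mybl2, and 0 were lower, against 0.852% of all tested genes in both directions. Among the 115, 49 had a higher and 66 a lower fitted value under the label cKO, or 57.4% lower, against 52.0% of all tested genes. The median log2 fold change was -0.09, against -0.02 over all tested genes. The groups did not overlap in 6 genes, E2f3, Mybl2 and Bub3 higher and Gins3, Incenp and Cks2 lower in the libraries labelled cKO, against 4.7% of all tested genes. In 48 of the 115, or 41.7%, both libraries numbered 2 lay below the other 4, against 18.8% of all tested genes. At 3 reads or fewer were 29 of the 115 in cKO replicate 2, 18 in control replicate 2 and 0 in each of the other 4 libraries. Over all tested genes the share was 12.5% in cKO replicate 2 and 6.66% in control replicate 2.

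Mybl2, encoding B-Myb, which binds MuvB to switch on mitotic genes, was at 2.64, 9.80 and 4.46 in cKO replicates 1 to 3, against 1.84, 0.368 and 0.667 in control replicates 1 to 3. In reads this was 55, 97 and 106, against 20, 5 and 12, so the control values rest on few reads. Every library labelled cKO was above every control library. The group means were 5.63 ± 3.72 and 0.959 ± 0.780 in the libraries labelled cKO and control (SD, n = 3 each). The log2 fold change was 1.68 (SE 0.70, limma adjusted p = 1.00). Lin9, a MuvB subunit, was at 7.10, 0 and 7.20, against 9.03, 15.006 and 6.95, with no read in cKO replicate 2. Foxm1, a mitotic transcription factor outside the naming rule and chosen after its values were seen, was at 16.1, 0 and 10.5, against 19.0, 0.588 and 17.2.

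D cyclins, which link growth signals to the cycle, were present in every library. Ccnd1 was at 129, 59.5 and 56.3 in cKO replicates 1 to 3, against 122, 64.1 and 204 in control replicates 1 to 3, with a log2 fold change of -0.62 (SE 0.47). Ccnd2 ran from 14.1 to 36.7 in the libraries labelled cKO and from 23.1 to 44.0 in those labelled control. Ccnd3 ran from 10.6 to 13.1 and from 5.81 to 16.9. Their partner Cdk4 was at 61.9, 8.08 and 45.6, against 58.3, 45.8 and 59.1, and stood apart only in cKO replicate 2. All these ranges overlapped between the groups.

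Inhibitors of cyclin-dependent kinases overlapped between the groups too. Cdkn1a, encoding p21, was at 29.0, 87.7 and 28.0 in cKO replicates 1 to 3, against 18.6, 48.5 and 73.6 in control replicates 1 to 3, with a log2 fold change of 0.03 (SE 0.58). Its highest library labelled cKO was replicate 2, where cyclin B1 and Cdk1 had no reads. Among the controls its highest was replicate 3, where cyclin B1 and Cdk1 had 316 and 109 reads. Cdkn1b, encoding p27, was at 73.4, 18.9 and 57.9, against 68.6, 56.9 and 78.2. Cdkn3, a phosphatase of Cdk1 and Cdk2, was at 4.22, 0 and 0.7997, against 5.16, 5.44 and 2.33. Cdkn2a and Cdkn2b were under the filter, with at most 4 and 47 reads in any library.

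Of the origin and fork genes, Gins1, of the helicase complex, was at 3.26, 0 and 0.168 in cKO replicates 1 to 3, against 3.13, 3.75 and 5.44 in control replicates 1 to 3, with a log2 fold change of -1.56 (SE 0.75). Cdc7, the kinase that fires origins, was at 14.0, 3.43 and 6.10, against 13.9, 18.9 and 14.3. For both genes the highest library labelled cKO lay above the lowest control library. Among the mitotic genes, Pttg1, encoding securin, was at 20.9, 2.42 and 23.3, against 22.7, 42.7 and 21.5. Cks2, a small partner of Cdk1, was at 6.29, 0 and 5.60, against 8.11, 7.21 and 9.50, without overlap. None of the 4 passed the adjusted threshold in limma.

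Markers of cell types that can divide moved in part with these totals, and their part in the result was not tested. Summed over 15 pericyte, smooth muscle and fibroblast markers, values were 3804, 651 and 3221 in cKO replicates 1 to 3, against 5753, 934 and 1469.8 in control replicates 1 to 3. As with the cell cycle genes, replicate 2 was the lowest of each group. In 6 of the 15 markers both libraries numbered 2 lay below the other 4, against 18.8% of all tested genes. The 12 endothelial markers summed to 192, 128 and 149, against 184, 85.8 and 129, with replicate 2 lowest in each group. Only 2 of these 12 markers had both libraries numbered 2 lowest. The 10 oligodendrocyte precursor markers summed to 3384, 2005 and 1974, against 2703, 2273 and 2828, with both libraries numbered 2 lowest in 0 of the 10. The 16 microglia and macrophage markers summed to 97.6, 89.3 and 53.5, against 68.3, 105 and 102, and 7 and 4 of them had no read in cKO replicate 2 and control replicate 2. The 12 progenitor and immature neuron markers summed to 339, 335 and 453, against 374, 329 and 470.5, with Eomes at 0 in all 6 libraries. The 12 astrocyte markers summed to 1175, 2056 and 908, against 904, 1223 and 654. Neutrophil markers summed to at most 4.17 over 7 genes in the libraries labelled cKO and 4.56 in those labelled control.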

How the data were processed

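Per the submitters' processing notes, reads were processed with Trimmomatic, HISAT2, featureCounts and edgeR against mm10, and versions were not given in the sources used here. The deposited signal is a read count scaled for depth by the authors. In each library at least 99.98% of values were whole multiples, within 0.001, of the smallest value above 0, so whole reads were recovered, and column totals, from 961962 to 1027960, were kept as deposited. Depth by these reads was 10094145 to 24056755 a library, and the detection floor was set at 3 reads. Reads may be copies of fewer molecules.

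Groups were compared on log2(value + 1) with limma 3.58.1 (R 4.3.3, trend on), over the 14796 genes that reached 1 in 3 or more libraries, with Benjamini-Hochberg adjustment. Fold changes on this scale understate the change of low genes and depend on the pseudocount where libraries are at 0. Alternatives were pseudocounts of 0.1 and 5, other filters and scalings, a replicate block, leaving out libraries, and edgeR 4.0.16 and DESeq2 1.42.0 on recovered reads. The test was also run on simulated counts, in which the libraries of a group shared the same mean for each gene apart from depth. The low values shared by the libraries numbered 2 were not simulated. That check therefore does not show which differences could be found in the 35 genes. Exon lengths and overlaps came from GENCODE M21, and promoters from RefSeq. The 35 genes and all lists were chosen with earlier results of these data known. Genes given by library were, in each role, the 2 of highest mean and that of smallest p, the 5 of smallest p in all, and, from the wider list, the 2 of smallest p in each of 5 groups, the 3 D cyclins, Cdkn1a and Cdkn1b. Others are given in part. The lymphocyte marker list is not reported here.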

Additional observations from a re-analysis of the deposited data

How the results depend on the processing

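Under 16 alternatives, 0 of the 35 cell cycle genes and 0 of the wider list passed the adjusted threshold. Over all tested genes the count was 0 in limma and edgeR and 1 in DESeq2 (Ifit3). The number of the 35 whose groups did not overlap was 0 in all 6 libraries, 12 without both libraries numbered 2, and 0 to 10 without a single library. Quantile normalization gave no such count.

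The sign of 19 of 33 named genes turned in at least 1 alternative, in no case past the threshold. Log2 fold changes without a single library ran from -0.74 to 2.44 for Mki67, -1.67 to 1.48 for Top2a, -1.33 to 1.32 for Cenpf, -0.92 to 0.95 for Ube2c, -0.63 to 1.06 for Tpx2, -0.35 to 0.93 for Prc1, -0.18 to 0.79 for Bub1b, -0.72 to 1.20 for Ccne2, -1.68 to 1.35 for Rrm2, -1.90 to 0.47 for Ccna2, -1.63 to 1.08 for Ccnb1, -1.96 to 0.077 for Bub1, -0.57 to 0.38 for Cenpe, -2.22 to 0.34 for Kif11, -1.60 to 0.29 for Cdc20, -0.46 to 0.23 for Ccnd3 and -0.51 to 0.45 for Cdkn1a. Without both libraries numbered 2 they were -0.22 for Ccne1, -0.21 for Ccne2, -0.30 for Bub1b, -0.30 for Cenpf, -0.21 for Tpx2, -0.32 for Prc1, -0.18 for Mki67, -0.46 for Top2a, -0.26 for Ube2c, 0.41 for Cdc20, 0.069 for Ccnd2 and -0.38 for Cdkn1a. With edgeR and with DESeq2 they were -0.015 and -0.052 for Ccne2, -0.044 and -0.069 for Tpx2, -0.32 and -0.35 for Top2a, and -0.17 and -0.20 for Ube2c. A pseudocount of 5 gave -0.061 for Top2a. A pseudocount of 0.1 and quantile normalization gave 0.010 and 0.00058 for Ccnd3. Beyond the leave-out fits, which differ in their libraries, the cause was not tested.

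Same-numbered libraries deviated together with correlations of 0.49, 0.30 and 0.03 for numbers 1, 2 and 3 over all tested genes. Crossing numbers 1 and 2, the correlation was -0.35 for cKO replicate 1 with control replicate 2. It was -0.40 for cKO replicate 2 with control replicate 1. Deviations were taken from the mean of each group, so within a group they sum to 0 for each gene. Positive values for some pairs therefore force negative values for others, and the crossed values add no separate observation. The labels state no pairing, so a replicate block was used only as an alternative, and what the numbers share was not tested. With a replicate block 0 of the 35 genes were called, the smallest unadjusted p among them was 0.0868, and the median log2 fold change was -0.14. Counts of 3 reads or fewer limit what can be said of the 18 genes with such a count in at least 1 library.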
